A study of Drosophila melanogaster with 12 samples.

Results

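The proteasome subunit genes were the 39 genes, of 10844 genes represented by a probe set of their own, whose current symbol began with Prosalpha, Prosbeta, Rpn or Rpt followed by a number. They comprised 12 genes of the core particle (6 of the alpha ring and 6 of the beta ring), 14 genes of the regulatory particle (7 of the base and 7 of the lid) and 13 family paralogs, whose symbols end in T or R with an optional number. The gene table held 48 genes with such symbols, and the other 9, among them the proteolytic subunit Prosbeta1, the ATPases Rpt1 and Rpt6 and the ubiquitin receptor Rpn10, were not analysed here because no probe set of this table named them alone.

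The proteasome is the main protease complex of the cytosol and nucleus, and it degrades proteins that carry chains of ubiquitin. Its core particle is a barrel in which a pair of outer alpha rings guards the entrance and the inner beta rings hold the proteolytic sites. The regulatory particle caps the barrel. Its lid removes ubiquitin, and its base holds ubiquitin receptors and a ring of Rpt ATPases that unfolds the substrate and threads it into the core. In the fly clock, light leads to the loss of the TIM protein through ubiquitin and the proteasome, but all flies studied here carried tim01, which leaves no working TIM, and were kept in darkness. Several of the paralogs are known in Drosophila as subunits made in the testis.

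Transcripts of adult heads were measured on 12 oligonucleotide arrays, all from y w; tim01 flies, with 1 array for each of 6 clock times on each of 2 days, and no wild-type array entered the comparisons. Flies were raised at 25 °C, transferred as pupae to a thermocycle in constant darkness and collected on its last day (CA), with 12 h at 18 °C followed by 12 h at 25 °C, and on the next day at a constant 25 °C (AA). The 4 groups of 3 arrays were CA cold (2, 6 and 10 h, 18 °C), CA warm (14, 18 and 22 h, 25 °C), AA subjective cold (2, 6 and 10 h, 25 °C) and AA subjective warm (14, 18 and 22 h, 25 °C). Each array held RNA of many heads sieved from frozen flies, so that fewer cells of a type and less RNA per cell cannot be told apart.

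Head tissue was present on every array, with the glial and fat body markers and both measured photoreceptor markers, Arr2 and trp, above the 20th percentile of the signals throughout. Of the neuronal markers, 4 of 5 were measured and 3 to 4 were above that percentile, with para below it at AA 6, 18 and 22 h. Of the testis and sperm markers, 14 of 16 were measured and 9 were above it on every array. Of the accessory gland markers 10 of 11 were measured with 3 to 4 above it. Of the gut markers 6 of 7 were measured, and these 6 were above it on every array. The CA 18-h array stood apart. Its mean signal of spiked controls was 7.91, against 8.65 to 9.13 on the other arrays, and its difference between the 3′ and 5′ probe sets, averaged over 3 control transcripts, was 1.42 against 1.78 to 2.33. Of all genes, 20.7% had their highest signal on that array, so results that it moved are also given without it.

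All 26 core and regulatory particle genes were detected, that is, above the 20th percentile of the signals on most of the arrays. So were 8 of the 13 paralogs and 8805 of all 10844 genes. The signals of the 39 genes varied little over the 2 days. Their median SD over the 12 arrays was 0.12 on the log2 scale, the same as the 0.12 of all genes, with 0.11 for the core particle and 0.12 for the regulatory particle. The 4 measured Rpt ATPases had a median SD of 0.18, and Rpt3 had the largest SD of the 39 genes, 0.30, while the paralog Prosbeta4R1 had the smallest, 0.04. By each gene's own deviations, the map of all 39 genes shows a bright column at CA 18 h and 2 isolated genes of the base, Rpt3 and Rpn13, at CA 22 h.

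**Figure D1:**
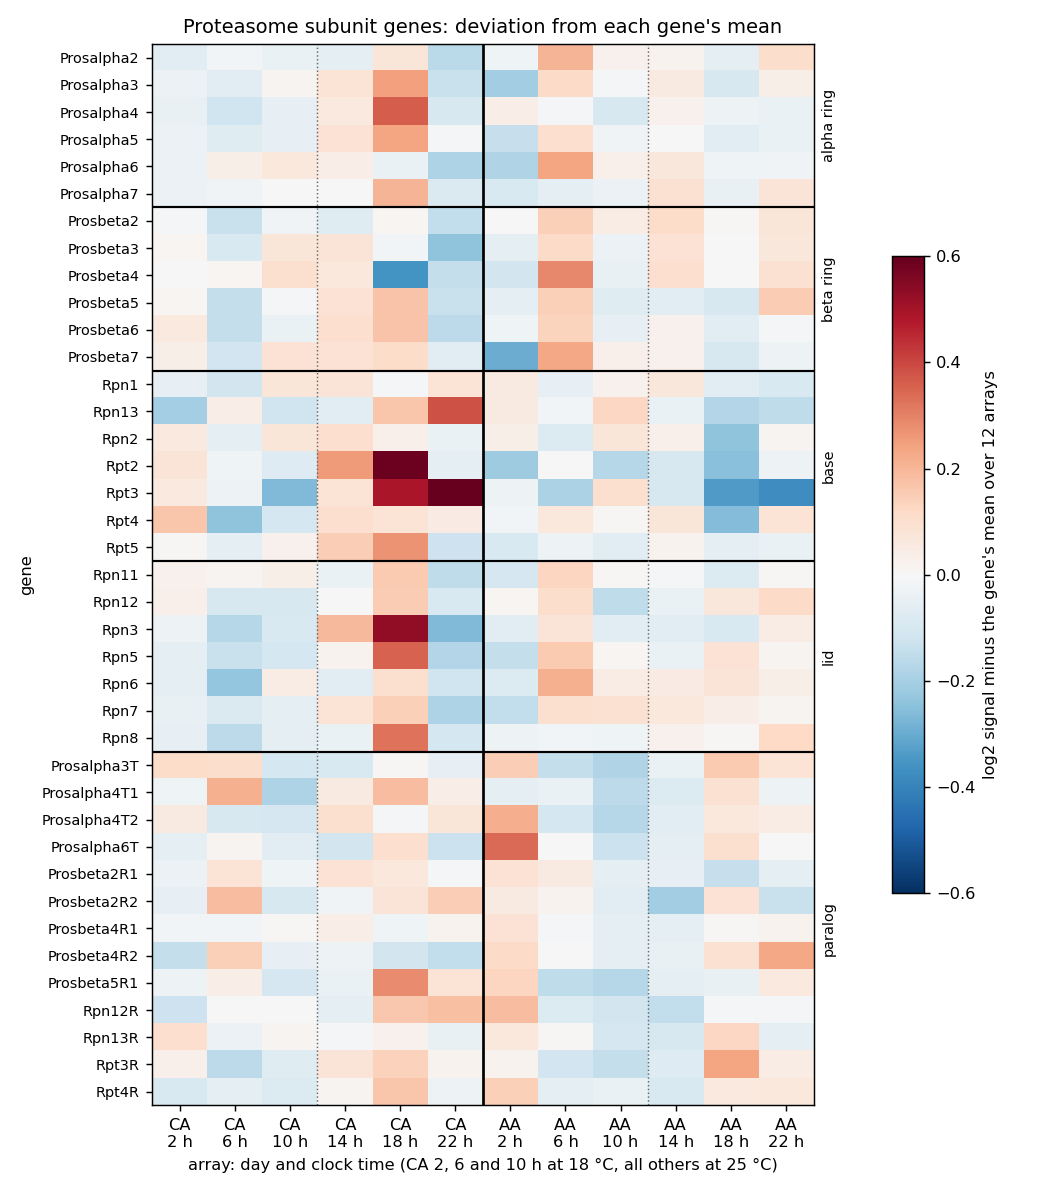
Log2 signal of each of the 39 genes (rows, grouped by part of the complex) on each of the 12 arrays (columns) minus that gene's mean over the 12 arrays. Of the 26 core and regulatory particle genes, 22 were above their own mean at CA 18 h, and 22 were below it at CA 22 h. Of all 10844 genes, 6327 were above at CA 18 h and 6429 below at CA 22 h.

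None of the 39 genes passed an adjusted p of 0.05 (limma, Benjamini-Hochberg over 13966 probe sets) in any comparison of day or phase. The CA cold phase was compared with the CA warm phase to ask whether the transcripts followed the temperature step without a clock. Over all probe sets, 0.00716% passed this threshold in that comparison. At an unadjusted p under 0.05, 2 of the 39 genes and 8.15% of all probe sets were counted, so single members stood out no more often than probe sets at large. The fitted difference was below 0, meaning lower in the cold phase, for 29 of the 39 genes, against 53.8% of all probe sets, with a median of -0.08 on the log2 scale against -0.01 for all genes. Without the CA 18-h array 27 of the 39 were lower, with a median of -0.02.

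The 2 particles differed in how uniform this direction was. Of the 14 regulatory particle genes 13 were lower in the cold phase of the CA day (median -0.12), and in the core particle 7 of 12 were lower, with a median of -0.05. Within the regulatory particle the base had the larger median, -0.14 with 7 of 7 genes lower, and the lid had -0.08 with 6 of 7 lower. Without the CA 18-h array the core median was 0.01 and the lid median -0.01, while the base kept 7 of 7 genes lower with a median of -0.11, against 47.6% of all probe sets below 0. Leaving out each of the 12 arrays in turn, the base had 6 to 7 of 7 genes lower and medians from -0.20 to -0.08. These are counts and medians of the genes as listed, and no difference between parts was tested.

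Rpt3, one of the ATPases that unfolds substrates, had the smallest p of the members between the CA phases. Its log2 signals were 5.98, 5.89 and 5.66 at 2, 6 and 10 h of the CA day and 6.0, 6.41 and 6.52 at 14, 18 and 22 h. On the AA day they were 5.89, 5.73 and 6.02 in the subjective cold phase and 5.82, 5.58 and 5.55 in the subjective warm phase. Thus the 3 CA warm arrays were above all CA cold arrays, although by little at 14 h, and the AA day ran the other way. Rpt3 was lower in CA cold than in CA warm by a difference of -0.47 ± 0.13 (SE, adjusted p = 0.369 from limma). Leaving out the CA 18-h array gave -0.42 ± 0.15 (adjusted p = 0.955). In the AA day the same contrast was 0.23 ± 0.13 (adjusted p = 1), and the difference between both contrasts was -0.70 ± 0.19 (adjusted p = 0.574). Over the 39 genes, the difference between the contrasts was below 0 for 30, against 48.7% of all probe sets, and for 20 without the CA 18-h array, against 43.4%. An unadjusted p under 0.05 was found for 2 of the 39, Rpt3 and Rpn13, against 7.9% of all probe sets.

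Rpn13, a ubiquitin receptor of the base, had the order of arrays of Rpt3 within CA warm and within AA subjective cold. Within CA cold Rpn13 was lowest at 2 h, where Rpt3 was highest of that phase. The signals of Rpn13 were 7.61, 7.86 and 7.69 in CA cold and 7.75, 7.98 and 8.20 in CA warm. On the AA day they were 7.87, 7.80 and 7.94 in subjective cold and 7.77, 7.64 and 7.66 in subjective warm. The CA groups overlapped, while the AA subjective cold arrays were all above the AA subjective warm arrays, as in 3.73% of all probe sets; in Rpn8 the opposite order held (5.86%). Rpn13 differed by -0.25 ± 0.11 between CA cold and CA warm (adjusted p = 0.58) and by 0.18 between the AA phases (adjusted p = 1), and the contrasts differed by -0.43 ± 0.15 (adjusted p = 0.574).

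Rpt2, the ATPase that helps to open the gate of the core, was highest at CA 18 h and next highest at CA 14 h. Its CA signals were 5.98, 5.88 and 5.83 in the cold phase and 6.16, 6.49 and 5.84 in the warm phase, and its AA signals lay between 5.65 and 5.91. Its difference between CA cold and CA warm was -0.27 ± 0.13 (adjusted p = 0.631). It was -0.10 with the CA 18-h array left out. In the gene table Rpt2 overlaps another gene model, and the array annotation does not say whether the probes separate them. The other ATPases, Rpt4 and Rpt5, and the large scaffold subunit Rpn1 had differences of -0.14, -0.11 and -0.08, and the scaffold Rpn2 had -0.005. With CA 18 h left out, Rpt5 had -0.02 and Rpn1 -0.11.

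**Figure D2:**
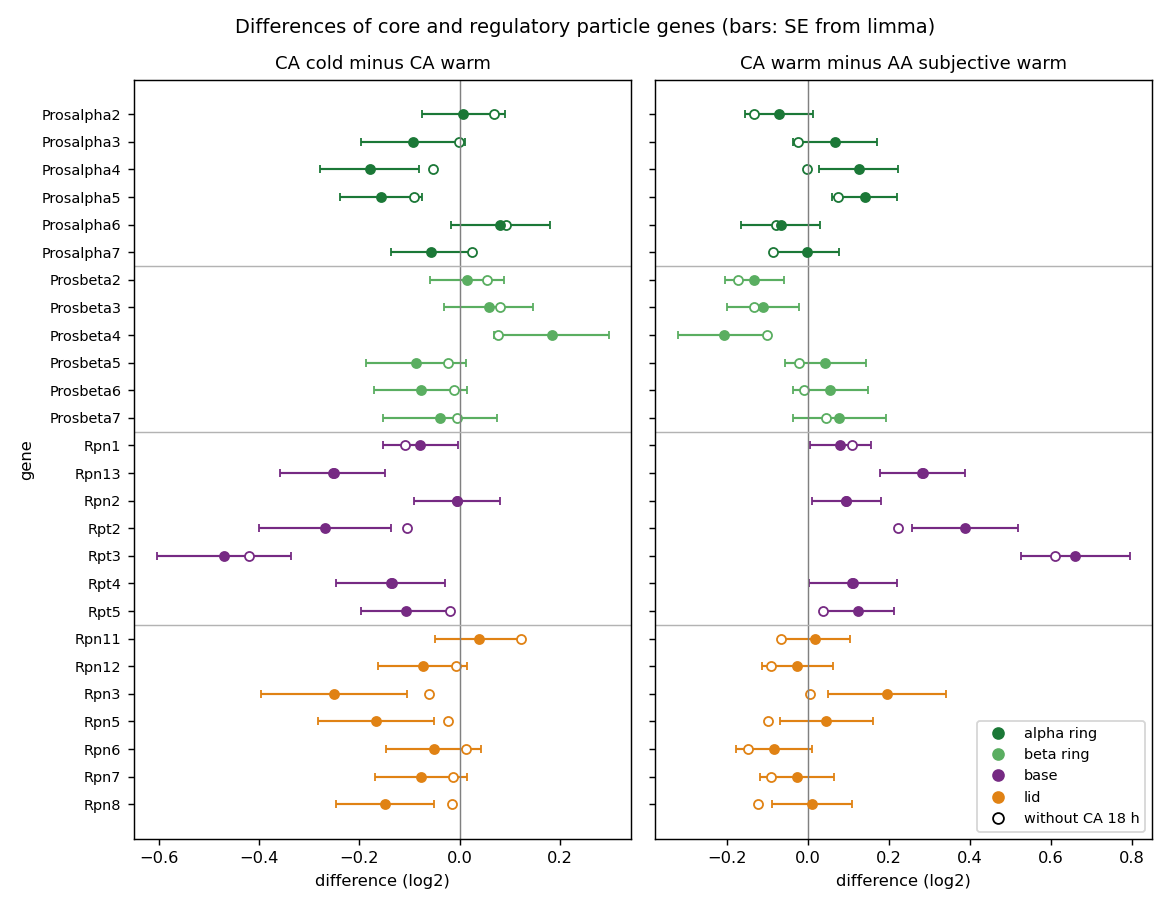
Fitted difference in log2 signal of the 26 core and regulatory particle genes (rows) between CA cold and CA warm and between CA warm and AA subjective warm, with bars of 1 SE from limma over all 12 arrays; open points are the differences without the CA 18-h array. The 7 base genes lie below 0 in the first comparison and above 0 in the second, both with and without that array, and Rpt3 has the largest difference in each (-0.47 and 0.66).

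The measured proteolytic subunits Prosbeta5 and Prosbeta2 had SDs of 0.11 and 0.09 over the 12 arrays. The median SD was 0.11 for the core particle and 0.12 for all genes. Prosbeta5, which carries the chymotrypsin-like site, had signals of 6.80, 6.65 and 6.79 in CA cold, 6.88, 6.96 and 6.66 in CA warm, 6.73, 6.94 and 6.72 in AA subjective cold and 6.73, 6.69 and 6.94 in AA subjective warm. Its groups overlapped in both phase comparisons, and the CA cold mean of 6.74 ± 0.09 (SD, n = 3) and the CA warm mean of 6.83 ± 0.16 differed by -0.09 ± 0.10 (SE, adjusted p = 0.884, limma), or by -0.02 without the CA 18-h array. Prosbeta2, with the trypsin-like site, had 8.36, 8.23 and 8.34 in CA cold and 8.29, 8.38 and 8.22 in CA warm. The CA phases of Prosbeta2 differed by 0.01 ± 0.07 (adjusted p = 0.979), or by 0.06 without it. Rpn11, the deubiquitinase of the lid, had 6.99, 6.98 and 7.0 in CA cold and 6.92, 7.12 and 6.81 in CA warm, so that the cold arrays lay within the range of the warm ones (difference 0.04 ± 0.09, adjusted p = 0.946; 0.12 without the CA 18-h array).

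In the alpha ring, whose members gate the core, Prosalpha5 and Prosalpha4 had the smallest p. Prosalpha5 had 6.11, 6.07 and 6.09 in CA cold and 6.23, 6.38 and 6.13 in CA warm, which did not overlap, and Rpt3, Prosalpha5 and the paralog Rpt4R were the 3 members whose CA cold arrays were all below the CA warm arrays, as in 5.53% of all probe sets; no member had the opposite order (5.55%). The difference of Prosalpha5 was -0.16 ± 0.08 (adjusted p = 0.652), which became -0.09 with CA 18 h left out, and that of Prosalpha4 was -0.18 ± 0.10 (adjusted p = 0.678). Prosalpha4 reached 6.40 at CA 18 h and lay between 5.92 and 6.10 on the other 11 arrays, so that its difference was -0.05 without that array. Prosalpha2, the member with the highest mean signal, differed by 0.01 ± 0.08 (adjusted p = 0.991), or 0.07 without it.

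In the beta ring 3 genes were higher and 3 lower in the CA cold phase, and Prosbeta4, a structural subunit, had the largest difference. Its signals were 8.22, 8.22 and 8.31 in CA cold and 8.28, 7.85 and 8.07 in CA warm, with its lowest signal at CA 18 h, and the difference was 0.18 ± 0.11 (adjusted p = 0.719), or 0.08 without that array. In the lid the structural subunits Rpn3 and Rpn8 had the smallest p, and the value at CA 18 h made up most of their differences. Rpn3 had 7.25, 7.11 and 7.19 in CA cold and 7.48, 7.81 and 7.02 in CA warm, and its difference of -0.25 ± 0.15 (adjusted p = 0.704) was -0.06 without that array. Rpn8 had 5.52 at CA 18 h and 5.04 to 5.32 elsewhere, and its difference of -0.15 ± 0.10 (adjusted p = 0.741) was -0.02 without it.

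Warm phase arrays of both days, taken at the same clock times and at the same 25 °C, gave the largest difference of any member between 2 groups. They ask whether having been at 18 °C some hours earlier left a trace. The groups also differ in the day of collection and the age of the flies, with 1 array per clock time. A trace of the cold therefore cannot be told apart from these. Rpt3 was 6.31 ± 0.27 (SD, n = 3) in CA warm and 5.65 ± 0.15 in AA subjective warm, with no overlap, as for the paralog Prosbeta2R1 and for 8.37% of all probe sets. The difference of 0.66 ± 0.13 (SE) had an unadjusted p of 0.000265 and an adjusted p of 0.175 (limma), where 0.0143% of all probe sets passed. It passed the threshold only when the CA 14-h array was left out (0.82, adjusted p = 0.028), and the adjusted p without the CA 18-h array was 0.234. Rpt2 differed by 0.39 ± 0.13 (adjusted p = 0.25; 0.22 without the CA 18-h array) and Rpn13 by 0.28 ± 0.11 (adjusted p = 0.268; 0.28 without it). These 3 were the members with an unadjusted p under 0.05, against 14.6% of all probe sets.

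All 7 base genes were higher in CA warm than in AA subjective warm, with a median of 0.12, and 48.4% of all probe sets were. The core particle had 6 of 12 genes higher with a median of 0.02, and the lid had 4 of 7 with 0.01. Without the CA 18-h array the base kept 7 of 7 genes higher with a median of 0.11, whereas the core had 2 of 12 higher with -0.05 and the lid 1 of 7 with -0.09. Without the AA 18-h array 6 of 7 base genes were higher. At matched hours, 6 of 7 base genes were higher on the CA array at 14 h, 7 of 7 at 18 h and 3 of 7 at 22 h. The median differences were 0.07, 0.34 and -0.03. Of all 10844 genes, 5531, 5530 and 4178 were higher at these hours. The comparison shares its CA warm arrays with that between the CA phases, so the base counts of both are not separate observations.

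Some neuronal markers were also higher in CA warm than in AA subjective warm, though none passed the threshold. Of 5 listed, 4 were measured, and their summed level on the log2 scale was 7.72 to 8.28 in CA warm and 7.31 to 7.61 in AA subjective warm, with 7.70 to 7.80 in CA cold and 7.43 to 8.15 in AA subjective cold. The synaptic vesicle gene nSyb had 6.57, 7.19 and 7.47 in CA warm and 6.45, 6.04 and 6.09 in AA subjective warm, a difference of 0.89 ± 0.25 (adjusted p = 0.205). The neuronal RNA-binding protein gene elav had 5.85, 5.43 and 6.16 against 5.63, 5.18 and 5.18, a difference of 0.48 ± 0.23 (adjusted p = 0.355), and brp and para had differences of 0.11 and 0.08. Leaving out the CA 18-h array gave 0.83, 0.68, 0.06 and 0.07. Both nSyb and Rpt3 were highest at CA 22 h, and the AA 18- and 22-h arrays held the lowest 2 signals of each. At CA 18 h, where Rpt3 and Rpt2 were high, elav had its lowest CA signal. Between the CA phases nSyb differed by -0.58, brp by -0.03, elav by 0.11 and para by 0.01. Once CA 18 h was dropped, the values became -0.52, 0.02, -0.08 and 0.02, so elav and brp changed sign. For AA subjective cold against subjective warm, nSyb gave 0.53, brp 0.05, elav 0.57 and para 0.02, with Rpt3 at 0.23. The CA and AA contrasts of nSyb differed by -1.11 ± 0.36 (adjusted p = 0.574, limma). Those of elav, brp and para differed by -0.46, -0.08 and -0.006. The part of these markers in the values of Rpt3 and the base was not tested.

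**Figure D3:**
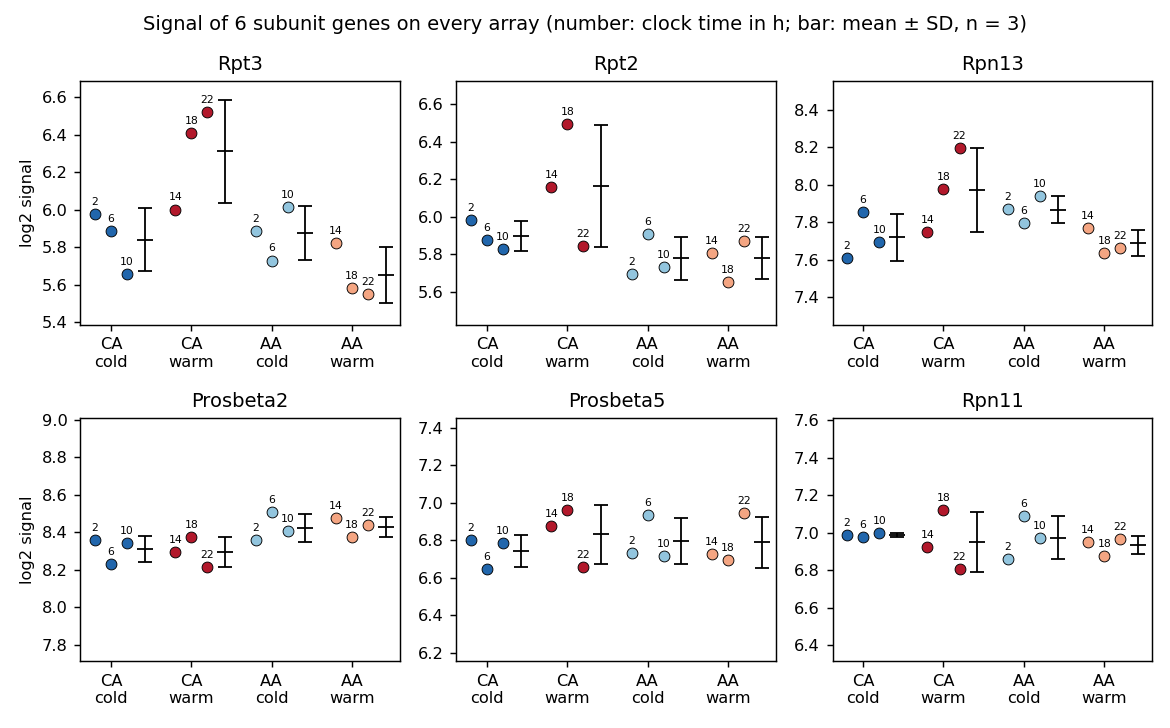
Log2 signal of Rpt3, Rpt2, Rpn13, Prosbeta2, Prosbeta5 and Rpn11 on each of the 12 arrays by group (the number at a point is its clock time in h; bars are the mean ± SD of 3 arrays; all panels span the same height). Rpt3 is the only one of the 6 whose CA warm arrays lie above all CA cold and all AA subjective warm arrays.

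In the AA day, where temperature stayed at 25 °C, subjective cold and subjective warm arrays gave a median difference of 0.005 over the 39 genes, with 20 higher and 19 lower (41.2% of all probe sets were higher). None had an unadjusted p under 0.05, against 4.55% of all probe sets. The median was 0.001 for the core, 0.05 for the base and -0.01 for the lid. CA cold and AA subjective cold, at 18 °C and 25 °C, differed by a median of -0.03 with 26 of 39 genes lower (49% of all probe sets), and again no member had an unadjusted p under 0.05, against 3.54%. Prosbeta2 had the smallest p there. Its CA cold arrays (8.228 to 8.357) were all below its AA subjective cold arrays (8.359 to 8.505), as in 3.73% of all probe sets, with a difference of -0.11 (adjusted p = 1). Rpn8 had the same order, and Prosalpha7 the opposite one (4.15%).

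Over whole days the base was the part whose genes all lay on one side of 0. All 7 base genes were higher in the CA day than in the AA day, with a median of 0.07 (49.2% of all probe sets were above 0), while the core had 5 of 12 higher with a median of -0.003 (4 of 6 in the alpha ring) and the lid 2 of 7 with a median of -0.03. Without the CA 18-h array 7 of 7 base genes were still higher, and 7 of 7 lid genes and 10 of 12 core genes were lower (55.2% of all probe sets). Between the cold phases alone, 3 base genes were higher in the CA day and 4 lower, with a median of -0.04. The day comparison includes the arrays of the warm phases, so its base count is not a separate observation. Rpt3 was higher in the CA day by 0.31 ± 0.10 (adjusted p = 0.484), Rpt2 by 0.25 ± 0.09 (adjusted p = 0.487) and Prosbeta2 was lower, with -0.12 ± 0.05 (adjusted p = 0.516). No probe set passed the threshold in this comparison, and the 3 members named had unadjusted p under 0.05, against 8.89% of all probe sets. Setting the 3 arrays at 18 °C against the 9 arrays at 25 °C gave a median of -0.05 with 30 of 39 genes lower (54.3% of all probe sets; 27 without the CA 18-h array), no member with an unadjusted p under 0.05 (5.48% of all probe sets had one), and the smallest p for Rpt4R. Of all probe sets, 0.0286% passed the adjusted threshold there.

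By hour, many core and lid genes had their extremes on the same few arrays. Of the 26 core and regulatory particle genes, 14 had their highest signal at CA 18 h (6 of 12 core, 6 of 7 lid and 2 of 7 base genes; 20.7% of all genes), and 10 had their lowest signal 4 h later at CA 22 h (8.6% of all genes). Between those arrays 22 of the 26 genes had a lower second value, with a median step of -0.25; of all 10844 genes 6462 had, with a median of -0.05. At CA 18 h the base was raised as well, with a median deviation of 0.165 and 6 of 7 genes above their own means. Of all 10844 genes, 6327 were above theirs there. At CA 22 h all 12 core and all 7 lid genes were below their own means (6429 of all genes), while 4 of 7 base genes were above. At AA 18 h the 7 base genes and 10 of 12 core genes were below their means and 5 of 7 lid genes above. Of all genes, 4633 were below their means there and 6209 above. The 26 genes were lower on the CA than on the AA array of the same hour in 22 cases at 6 h and in 22 cases at 22 h, and higher in 23 cases at 18 h, with median differences of -0.19, -0.16 and 0.26. Of all genes 5245 and 6643 were lower at 6 and 22 h and 5530 higher at 18 h, with medians of 0.01, -0.05 and 0.005.

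**Figure D4:**
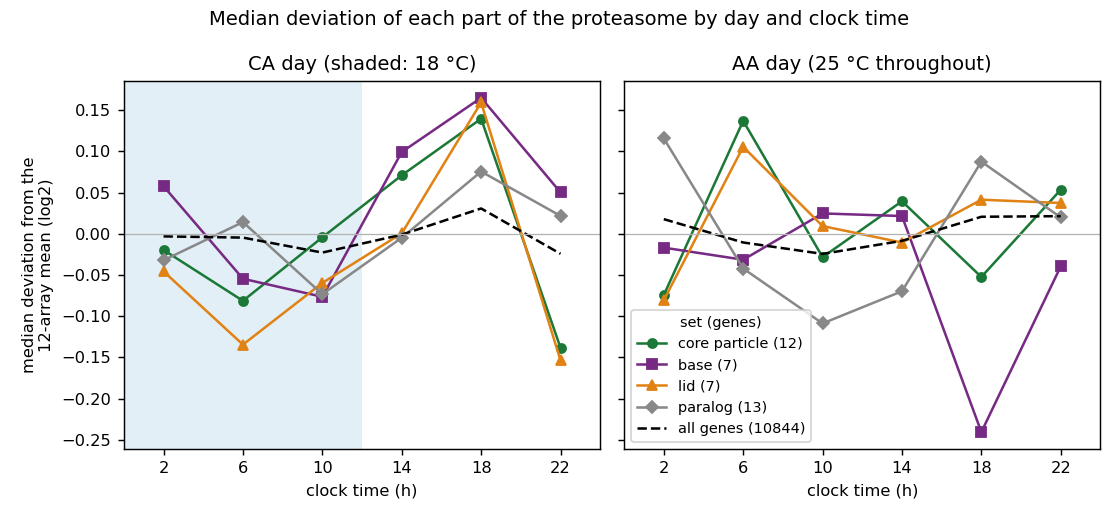
Median deviation from each gene's 12-array mean (log2) for the core particle, base, lid and paralogs, and for all genes (dashed), by clock time (h) on the CA day, with the 18 °C phase shaded, and on the AA day. Core, lid and base are highest at CA 18 h (0.14, 0.16 and 0.165). Core and lid are also high at AA 6 h (0.14 and 0.11), where the base is at -0.03. Core and lid are low at CA 22 h (-0.14 and -0.15), where the base is at 0.05.

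AA 6 h was the other time at which the core stood high. There 6 of the 12 core genes had their highest signal, and 9 of 12 without the CA 18-h array, against 8.13% and 9.3% of all genes; none of the 7 base genes did. On this array the markers of testis and of accessory gland, tissues outside the head, had their highest median deviations, 0.32 and 0.34. Their summed levels over the AA subjective cold arrays were 9.29 to 9.72 and 6.94 to 8.10, against 9.33 to 9.46 and 7.03 to 7.06 over the AA subjective warm arrays, 9.35 to 9.66 and 6.995 to 7.50 over CA cold and 9.37 to 9.45 and 6.92 to 6.95 over CA warm. At CA 6 h those markers were also above their means, by 0.15 and 0.17. There 10 of 12 core genes were below theirs, as were 5607 of all 10844 genes. The part of these tissues in the core values was not tested.

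The paralogs followed another pattern. Their median deviations were highest at AA 2 h (0.12). There 12 of 13 were above their means (6012 of all 10844 genes) and 5 had their highest signal (11.7% of all genes). The paralogs were all below their means at AA 10 and 14 h (6431 and 5805 of all genes). Testis markers were above their means at AA 2 h too, by 0.19, but stood higher at AA 6 h, where 4 of 13 paralogs were above theirs. Gut markers were highest at AA 2 h, by 0.23. Paralog mean signals had a median of 3.92, against 20th percentiles of 3.67 to 3.76. The mean of unspiked controls was highest at AA 18, AA 2 and CA 18 h (3.41, 3.40 and 3.36). There the paralog medians were 0.09, 0.12 and 0.08. These controls were at 3.21 at AA 10 h and 3.32 at AA 14 h. The part of tissues and background was not tested. Prosalpha4T2 and Prosbeta2R2, the paralogs with the highest mean signals, differed by -0.10 ± 0.10 (adjusted p = 0.853) and -0.05 ± 0.10 (adjusted p = 0.928) between the CA phases. Prosbeta4R2 had the lowest mean signal of the members and was above the 20th percentile on no array. Rpt4R had 3.83, 3.86 and 3.84 in CA cold and 3.93, 4.08 and 3.89 in CA warm, a difference of -0.12 ± 0.08 (adjusted p = 0.733), or -0.07 without the CA 18-h array.

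No time of day stood apart on both days. In the test of hour with day as an added term, no member had an unadjusted p under 0.05 and the smallest, 0.0606, belonged to Rpt3R, while 2.97% of all probe sets had one and none passed after adjustment. In the measure of 24-h periodicity, the share of a profile's variance at the daily Fourier component, no probe set was selected on either day. Of the 34 members tested in the CA day, Prosalpha6, Prosalpha5 and Rpt3 had a local p of 0.0333, against 3.54% of all probe sets under 0.05, with peaks at 10, 17.3 and 20.5 h. Of the 33 tested in the AA day none did, against 3%.

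Other genes of the ubiquitin-proteasome pathway were taken from a list of 37, of which 31 were matched, and none passed the threshold in any comparison. Between CA cold and CA warm 17 were higher and 14 lower, with a median of 0.05, or 0.004 without the CA 18-h array. The smallest p belonged to ref(2)P, the fly p62 receptor that carries ubiquitinated proteins to autophagy (-0.29 ± 0.11, adjusted p = 0.556), then to Cul1 and SkpA, the scaffold and adaptor of SCF ubiquitin ligases (0.26 ± 0.11 and 0.35 ± 0.18, adjusted p = 0.604 and 0.646). SkpA had 6.76 at CA 18 h and 7.42 to 7.85 elsewhere, and its difference was 0.09 without that array; that of Cul1 was 0.17. Between the warm phases 8 of the 31 had an unadjusted p under 0.05, 7 of them lower in CA warm. Of all 13966 probe sets 14.6% did, 892 higher and 1143 lower. Without the CA 18-h array 4 of the 31 did, 2 higher and 2 lower. Of all probe sets 1368 did so without it, 687 higher and 681 lower. Chosen after its values were seen, maf-S, which encodes a small Maf protein and had the smallest p of the list there, differed by -0.46 ± 0.13 (adjusted p = 0.202).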

How the data were processed

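RNA of heads was hybridised by the authors to Affymetrix Drosophila Genome 1 arrays as biotin-labelled cRNA. The deposited values were log2 signals that the authors made with RMA (background correction, quantile normalization, median polish; version not given in the sources used here). Quantile normalization removes any change shared by most transcripts. Of 14010 probe sets, 44 controls were set aside and 13966 were tested. Symbols came from the platform annotation, updated through the Entrez identifier in 12394 cases. A gene measured by several was represented by the one with the highest mean, which mattered for 2 members. The second probe set of Prosalpha7 differed by -0.04 ± 0.09 (SE) between CA cold and CA warm, and that of Prosbeta6 by 0.11 ± 0.08, against -0.08 for the one used. Between CA warm and AA subjective warm, that of Prosbeta6 differed by -0.25 ± 0.08 (unadjusted p = 0.0106, limma), against 0.05 for the one used. Its difference between the CA and AA phase contrasts was 0.27 ± 0.12 (unadjusted p = 0.0369, limma), against -0.11. Counts of members with an unadjusted p under 0.05 include only the probe set chosen for each gene.

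Using limma 3.58.1 (R 4.3.3), means of the 4 groups were fitted over the 12 arrays (8 residual and 5.28 prior degrees of freedom), with two-sided tests and Benjamini-Hochberg adjustment over all tested probe sets. Errors of differences are SE and errors of means are SD. Each array of a group is another time of day, nothing in the labels says that arrays came from separate cultures, and p-values measure only the spread between these arrays, whose number limits the precision. Periodicity used all 60 orders of the 6 times and a false discovery rate of 0.2, on probe sets mostly above the 20th percentile. Residuals of arrays of the same hour on both days correlated from -0.23 to 0.25, so hours were not paired. Scripts were tested on simulated data.

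Members and lists were chosen with earlier results of these data known. Named were the measured proteolytic subunits, ubiquitin receptor Rpn13 and deubiquitinase, the members with the highest and lowest mean, the 2 with the smallest p per part between the CA phases, the one with the smallest p in each other comparison, 2 paralogs with the highest mean, 3 partners with the smallest p, and members whose value on 1 array decides a median. Rpt2, Rpt4, Rpt5, Rpn1 and Rpn2 were also described as the rest of the base, and other members outside the rule were named after their values were seen. Alternatives were leaving out each array, the hour as a block, array weights, an intensity trend, median centring, an expression filter, only the arrays compared, and no 2- and 14-h arrays.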

Additional observations from a re-analysis of the deposited data

Results flagged for a closer look

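Single arrays lay far from the rest of their day, or of the 9 arrays at 25 °C, for a few members. Such a gap is expected by chance in about 1 of 20 groups, and its share over all genes was not counted. Of all genes, 20.7% had their highest signal at CA 18 h, so the counts are not read as particular to the members. In the CA day 3 of 39 genes had an outlying value, all at 18 h: Prosalpha7 at 6.581 with the next value at 6.374, Rpn5 at 7.703 with the next at 7.371, and Rpn8 at 5.522 with the next at 5.156. In the AA day 3 of 39 did. Rpt4 was lowest at 18 h with 6.484 (next 6.727), Rpn7 was lowest at 2 h with 6.83 (next 6.994), and Rpn8 was highest at 22 h with 5.316 (next 5.218). Over the 9 arrays at 25 °C there were 4 of 39. Prosalpha4 was highest at CA 18 h with 6.401 (next 6.1), Prosbeta3 was lowest at CA 22 h with 7.033 (next 7.223), Rpt4 was lowest at AA 18 h with 6.484, and the paralog Prosalpha6T, above the 20th percentile on 1 array, was highest at AA 2 h with 3.794 (next 3.554).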

How the results depend on the processing

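No alternative brought a member past the threshold, with 1 exception: leaving out single arrays gave 0 to 1 members past it between CA warm and AA subjective warm, the 1 being Rpt3 without the CA 14-h array. The median difference between the CA and AA phase contrasts, -0.07, lay between -0.10 and -0.001 when single arrays were left out, and it was -0.001 without the CA 18-h array. Other medians also moved without that array, from -0.08 to -0.02 between the CA phases, from 0.04 to -0.015 between the warm phases and from 0.02 to -0.02 between the days; the cause was not tested. With clock time as a replicate block, which could be fitted only where both days are compared, 0 members passed the threshold and the medians stayed at -0.07 for the difference between contrasts, -0.03 for the cold phases, 0.04 for the warm phases and 0.02 for the days. The difference of Rpt3 between the warm phases lay between 0.56 and 0.90 over all alternatives, with adjusted p from 0.028 to 0.471. Counts without the CA 18-h array, the leave-one-out counts of the parts and the alternatives of Rpt3, Rpt2 and Rpn13 between the warm phases were chosen after seeing the data. Quantile-normalized log2 signals give no change shared by most transcripts, and 5 of the 39 members were near the lowest signals of the arrays.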
